A study of Mus musculus with 6 samples.

Results

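The genes of the LIF, JAK and STAT3 pathway were followed by RNA-seq in wild-type (WT) mouse embryonic stem cells (mESCs) and in mESCs lacking PATZ1, a zinc finger protein. The genes followed, 10 of the 23420 gene symbols counted, were chosen by name for their place in the pathway: the ligand gene Lif, the receptor genes Lifr and Il6st, the kinase gene Jak1, the transcription factor gene Stat3, and the STAT3 target genes Socs3, Pim1, Pim3, Junb and Gbx2. All 10 were present in the counts and all 10 passed the filter on low counts. The rule that chose them uses their names and no measured value, though earlier results of these data were known. Both groups came from the E14 line (ES-E14TG2a), with 3 WT and 3 Patz1 knockout (KO) libraries of total RNA depleted of ribosomal RNA, and the design names a WT line and a KO line. The study derived several KO clones, and whether the 3 KO libraries come from 1 clone is not given in the sources used here. WT carried no edit, and the KO line was derived from WT E14 cells with CRISPR/Cas9, a guide RNA against Patz1 and selection of single clones. All cells had LIF in the medium together with the 2i inhibitors of MEK1/2 and GSK3, so every value below is a level under added LIF. The study calls the 3 libraries of a genotype biological replicates, a term it defines for independent differentiations, and whether these undifferentiated cells came from separate cultures or clones is not given in the sources used here, so p-values measure the spread between these samples.

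LIF is a cytokine that keeps mouse ESCs undifferentiated. It binds a receptor made of LIFR and gp130, the product of Il6st. Receptor-bound kinases, mainly JAK1 in these cells, then phosphorylate STAT3, which enters the nucleus and switches on its target genes. One of these targets, Socs3, encodes a protein that binds gp130 and JAK and dampens the signal. RNA counts report the levels of these transcripts, not the phosphorylation of STAT3.

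The guide against Patz1 is printed first, since it defines the KO group. Its 20 bases lie at chr11:3290600-3290619 on the plus strand (build GRCm38), in exon 1 of Patz1, and its base 15, counted from the 5′ end, is the first base of the annotated start codon. Capitals mark the adjacent PAM.
Patz1 guide: aaggggcagcgaccatggagCGG
The promoters of the 10 genes were then read from RefSeq (GRCm38.p6) from 250 bases before to 50 bases after the transcription start, and searched on both strands for the STAT motif TTCNNNGAA, for its stricter form TTCCNGGAA (every match of which is also a match of the first) and for the G-rich run GGGGNGGGG, since the zinc fingers of PATZ1 resemble those of MAZ, a factor known for binding G-rich DNA. All starts listed by RefSeq were used, 2 each for Lifr and Pim1. They need not be the outer ends of the GENCODE genes given with the values below: the start used for Socs3 lies 681 bases inside that interval, and the one for the Lifr match shown lies 38958 bases inside it. A match describes the letters only. The STAT motif was found in 1 of 10 promoters, that of Socs3, against 8.07% of the 11022 tested genes with a promoter sequence, and the stricter form was found in 0 of 10, against 1.42%. The stretch of the Socs3 promoter that holds the motif, chr11:117969442-117969541 on the minus strand, runs from 175 to 76 bases before the RefSeq start. Capitals mark first the STAT motif, which begins 154 bases before the start, and then a G-rich run, which begins 98 bases before it.
Socs3 promoter: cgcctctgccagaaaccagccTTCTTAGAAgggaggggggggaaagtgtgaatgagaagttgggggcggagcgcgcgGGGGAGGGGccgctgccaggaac
The G-rich run was found in 7 of 10 promoters (Lif, Lifr, Il6st, Jak1, Socs3, Pim1 and Junb, but not Stat3, Pim3 or Gbx2), against 38.0% of the tested genes and 22.4% of all 32851 promoter windows. One match each in Lif, the ligand gene, Lifr, a receptor gene, and Jak1, the kinase gene, is shown as an example with 10 bases on each side and the run in capitals.
Lif, chr11:4257504-4257512, plus strand: cctcagcttgGGGGTGGGGtggaagtggg
Lifr, chr15:7129493-7129501, plus strand: gggggcgcgcGGGGCGGGGcctgggcggg
Jak1, chr4:101265265-101265273, minus strand: cagagttggaGGGGCGGGGcgccggtgcg

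The libraries held between 11040756 and 47721070 counts. Replicate 3 of each genotype was the shallowest, and Rn45s, a ribosomal RNA gene, took 14.4% of the WT counts there and 12.5% of the KO counts, while the remaining 4 libraries had 1.79% to 3.03%. Counts were divided by a size factor per library, and these normalized counts are the levels given below. Patz1 itself read 1838, 1983 and 1843 in WT and 853, 862 and 862 in KO, so that KO stood at 45.5% of WT (log2 fold change of KO over WT -1.14 ± 0.10 (SE)). Patz1 RNA was thus lower in every KO library but present. The 7 ESC markers fixed for this check, among them Pou5f1 and Nanog, summed to 98310 to 103500 in WT and 107600 to 111000 in KO, and 0 of 7 passed the test, while with libraries compared within equal replicate numbers 3 of 7 passed as higher in KO (Fgf4, Pou5f1 and Zfp42), where 14.6% of all genes passed. Fibroblast markers summed to 92.1 to 122 in WT and 159 to 227 in KO, with 5 of 8 at a mean under 10. Of them Thy1 (log2 fold change 0.83, DESeq2 adjusted p = 0.0147) and Acta2 (2.31, 0.000698) were higher in KO, while the other 2 that were tested, Col1a1 (-0.23) and Col1a2 (-0.90), did not pass. Thy1 did not pass when any library but WT replicate 3 was left out (0.0519 to 0.248). Of 6 primitive endoderm markers, whose list summed to 133 to 189 in WT and 160 to 214 in KO, Dab2 was higher in KO (1.33, DESeq2 adjusted p = 0.00191), though not without WT replicate 1 (0.0770) or 2 (0.0531), and the other 5 had log2 fold changes between -0.83 and -0.0066 that did not pass. In DESeq2, mesendoderm markers (0 of 4 tested past the threshold, sums of 834 to 1128 in WT and 681 to 1008 in KO) and neural markers (0 of 3, 3754 to 4670 and 3956 to 5024) gave no call. The fifth mesendoderm marker, Foxa2, named after its values were seen, read 0 in the 3 WT libraries and 12.4, 4.15 and 5.29 in KO. Independent filtering in DESeq2 removed it, and it passed as higher in edgeR (adjusted p = 0.0242), in limma-voom (0.0286), without that filtering (0.0204) and with chromosome 11 centred (0.0195). It missed the threshold in DESeq2 without WT replicate 1 (0.157) or 2 (0.125), and had no adjusted p in either fit with the replicate block. In bulk RNA, more cells of a type and more RNA per cell cannot be told apart, and the part of these markers in the results was not tested.

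None of the 10 genes passed the test between WT and Patz1 KO: 0 of 10 had a DESeq2 adjusted p under 0.05, where 7.49% of the 15309 genes tested did (1146 genes). By direction, 2.70% of those genes were higher in KO (414) and 4.78% were lower (732). The edgeR quasi-likelihood test also called 0 of 10, against 5.46% of its genes, and limma-voom 0 of 10, against 5.33%. Without adjustment, p was under 0.05 for 2 of 10 in DESeq2 (Jak1 and Pim3), and for 17.2% of all genes. It was under 0.05 for 3 in edgeR and 4 in limma-voom, fits for which that share over all genes was not taken. Of the 10 log2 fold changes, 5 lay above 0 and 5 below, with a median of 0.0040, against 0.0087 over all genes tested. The WT and KO libraries did not overlap for 2 of 10, Jak1 lower and Pim3 higher in KO, where 25.6% of all genes tested did not overlap. Libraries with the same replicate number were also compared with each other (replicate block), a pairing read from the counts, since no label gives a shared batch. In that fit Jak1 (DESeq2 adjusted p = 0.0113) and Pim3 (0.0112) both passed, and 14.6% of all genes did. Leaving out replicate 3 of both genotypes gave 0 of 10, where 1332 genes passed over all genes, against 1146 with all 6 libraries.

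**Figure D1:**
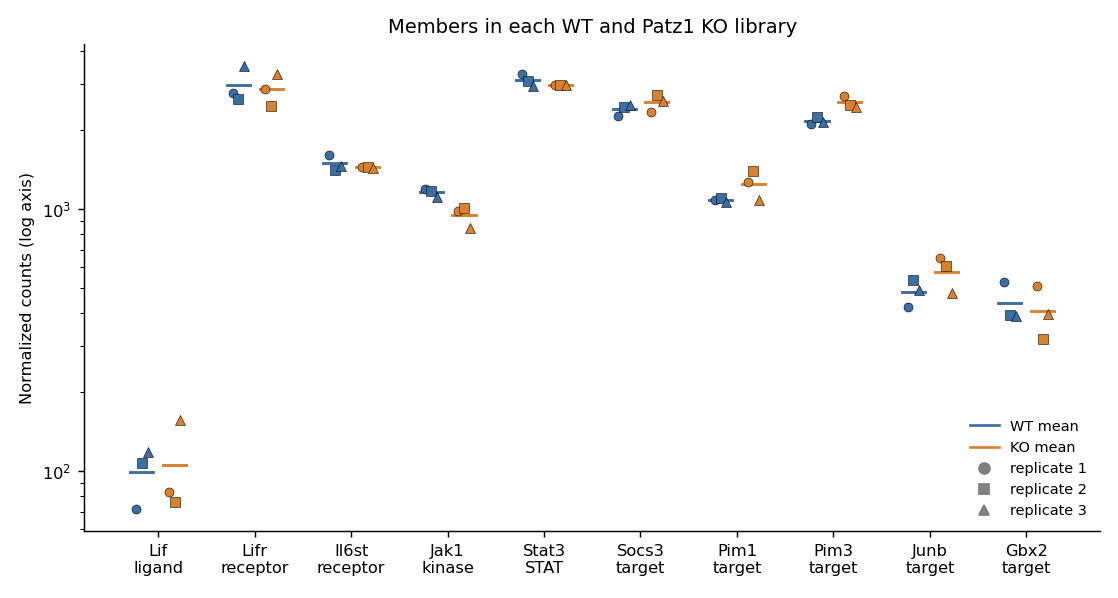
Normalized counts (vertical log axis) of the 10 genes in each WT (blue) and Patz1 KO (orange) library; marker shapes give the replicate number and bars the mean of 3 libraries. Jak1 is lower and Pim3 higher in every KO library than in every WT library, and the points of the other 8 genes overlap.

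The ligand gene Lif (chr11:4257557-4272514, plus strand) was the lowest of the 10. It read 71.5, 107 and 118 normalized counts in the WT libraries and 83.5, 76.5 and 156 in the KO libraries. The groups overlapped, and the highest value of each genotype was in replicate 3, where it rested on 43 counts in WT and 59 in KO. The mean was 98.9 ± 24.3 (SD, n = 3) in WT and 105 ± 44.0 in KO. The log2 fold change was 0.05 ± 0.30 (SE; DESeq2 adjusted p = 0.965), and the 95% interval of the fold reached from 0.691 to 1.56. Fold changes within that interval were not resolved by these 6 libraries.

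The receptor genes differed by less than the spread between libraries. Lifr (chr15:7090614-7197489, plus strand) read 2765, 2620 and 3505 in WT and 2865, 2475 and 3266 in KO. In both genotypes replicate 3 was the highest and replicate 2 the lowest. The log2 fold change was -0.05 ± 0.14 (DESeq2 adjusted p = 0.935), with a fold between 0.805 and 1.17. Il6st (chr13:112464070-112510086, plus strand), which encodes the gp130 subunit shared by receptors of the IL-6 family, read 1603, 1412 and 1457 in WT and 1451, 1439 and 1430 in KO. The 3 KO libraries lay within the WT range. Its log2 fold change was -0.05 ± 0.10 (DESeq2 adjusted p = 0.896), with a fold between 0.839 and 1.11. The ratio of Lifr to Il6st counts, chosen after the values were seen, was 199.5% ± 36.2 in WT and 199.3% ± 28.3 in KO (exact permutation test, two-sided p = 1; with 3 libraries against 3, the smallest p it allows is 0.1).

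Jak1 (chr4:101152367-101265282, minus strand), the kinase gene, had the lowest log2 fold change of the 10. It read 1192, 1174 and 1114 in WT and 981, 1005 and 848 in KO. Every KO library was below every WT library, and replicate 3 of KO was the lowest. The mean went from 1160 ± 40.8 in WT to 945 ± 84.3 in KO, or 81.4% of WT, and the difference within the 3 pairs of equal replicate number was -0.28, -0.22 and -0.39 on the log2 scale. The log2 fold change was -0.29 ± 0.11, with a fold of 0.818 (95% interval 0.702 to 0.953), which did not pass the test (DESeq2 unadjusted p = 0.00992, adjusted p = 0.0994) but passed with the replicate block. Its annotated interval overlaps that of Raver2 on the opposite strand by 4 bases.

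Stat3 (chr11:100885098-100939540, minus strand) differed least between the KO libraries. It read 3274, 3063 and 2946 in WT and 2957, 2971 and 2978 in KO. The KO values fell inside the WT range, with a coefficient of variation of 0.373% in KO and 5.36% in WT. The log2 fold change was -0.06 ± 0.09 (DESeq2 adjusted p = 0.851), and the interval of the fold, 0.845 to 1.09, bounds a reduction of Stat3 RNA at 0.845 of WT.

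Socs3 (chr11:117966079-117970047, minus strand), the feedback inhibitor, is the target whose printed promoter holds the STAT motif. It read 2268, 2447 and 2489 in WT and 2351, 2714 and 2582 in KO. The groups overlapped, and replicate 1 was the lowest in each. The log2 fold change was 0.09 ± 0.10 (DESeq2 adjusted p = 0.786), with a fold between 0.925 and 1.22. Socs3 counts amounted to 77.9% ± 7.79 of Stat3 counts in WT and 85.9% ± 5.95 in KO (exact permutation test, two-sided p = 0.3; a ratio chosen after the values were seen). This test ignores replicate numbers. By equal number, the ratio went from 69.3% in WT to 79.5% in KO, from 79.9% to 91.3% and from 84.5% to 86.7%. Socs3 itself did not pass with the replicate block (DESeq2 adjusted p = 0.491).

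The other 4 target genes comprised 3 with a log2 fold change above 0 and 1 below, and none passed the test. Pim3 (chr15:88862186-88865726, plus strand), a serine/threonine kinase gene, read 2107, 2242 and 2144 in WT and 2703, 2497 and 2444 in KO. Every KO library was above every WT library. The mean was 2164 ± 69.6 in WT and 2548 ± 136 in KO. This gave 0.24 ± 0.10 on the log2 scale and a fold of 1.18 (1.03 to 1.34; DESeq2 unadjusted p = 0.0137, adjusted p = 0.124), which passed with the replicate block. Pim1 (chr17:29490753-29496112, plus strand), a related kinase gene, read 1080, 1099 and 1062 in WT and 1264, 1393 and 1078 in KO. Replicates 1 and 2 of KO were above all WT libraries and replicate 3 was within their range, and the log2 fold change was 0.21 ± 0.12 (DESeq2 adjusted p = 0.370). The same arrangement was seen for Junb (chr8:84974484-84978718, minus strand), which encodes a subunit of the AP-1 transcription factor: it read 423, 535 and 490 in WT and 652, 603 and 476 in KO, which gave 0.28 ± 0.15 on the log2 scale (DESeq2 adjusted p = 0.364). Without replicate 3 of both genotypes Junb reached 0.39, and its annotated interval overlaps that of Prdx2 on the opposite strand by 351 bases. Gbx2 (chr1:89927956-89931179, minus strand), a homeobox transcription factor gene, read 527, 393 and 389 in WT and 508, 319 and 399 in KO. In both genotypes replicate 1 was the highest, and the log2 fold change was -0.10 ± 0.19 (DESeq2 adjusted p = 0.885).

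**Figure D2:**
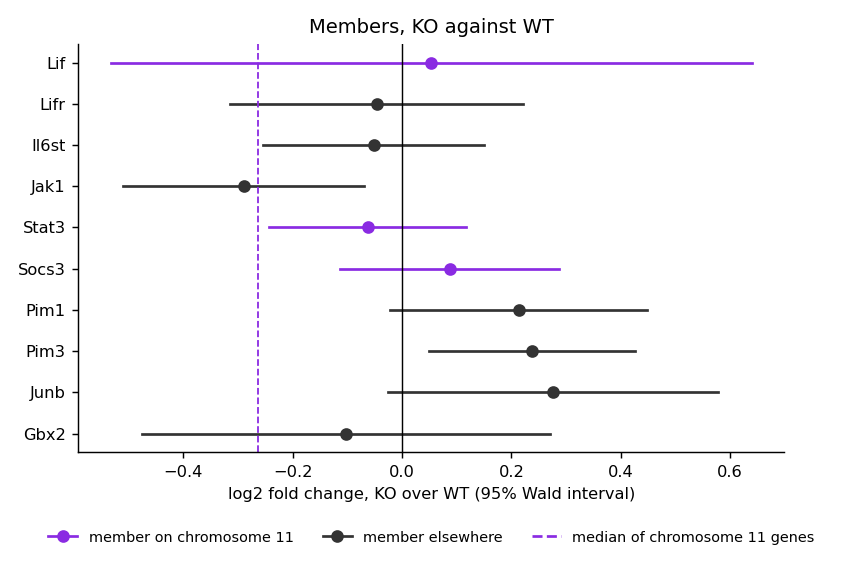
Log2 fold change of KO over WT for the 10 genes (points) with 95% Wald intervals (bars); purple marks genes on chromosome 11, and the dashed line the median of chromosome 11 genes. Only the intervals of Jak1 and Pim3 leave out 0, and the intervals of Stat3 and Socs3 lie to the right of the dashed line at -0.26, while that of Lif spans it.

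Per kilobase of exon, the targets Pim3 and Socs3 stood highest and Lif lowest. In WT, normalized counts per kilobase were 892 ± 28.7 for Pim3, 831 ± 40.6 for Socs3, 325 ± 17.4 for Stat3, 321 ± 5.41 for Pim1, 275 ± 44.0 for Lifr, 210 ± 24.5 for Junb, 200.4 ± 36.0 for Gbx2, 161 ± 5.65 for Jak1, 134 ± 8.99 for Il6st and 22.7 ± 5.58 for Lif. Among neighbours in this order, the libraries overlapped for Stat3 and Pim1, for Pim1 and Lifr, and for Junb and Gbx2. The order in KO was the same except that Pim1, at 370.4 ± 47.1, stood above Stat3, at 312 ± 1.16, and the pairs that overlapped there were Lifr and Junb, Junb and Gbx2, and Jak1 and Il6st. Jak1, at 131 ± 11.7 in KO, thus reached the level of Il6st, at 130 ± 0.959, from which it was separate in WT.

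Lif, Stat3 and Socs3 lie on chromosome 11, which also carries Patz1 and was lower as a whole in KO. Over 961 genes of that chromosome with a mean of at least 50 normalized counts, the median log2 level relative to each gene's mean over the 6 libraries was 0.22, 0.11 and 0.07 in WT and -0.12, -0.13 and -0.15 in KO. The difference of -0.27 was seen in each pair of equal replicate number (-0.33, -0.24 and -0.20; exact permutation test, two-sided p = 0.1, the smallest it allows), while the other 18 autosomes lay between 0.0036 and 0.06. Chromosome X moved the other way, by 0.21, also with separate groups (410 genes; exact permutation test, two-sided p = 0.1). Of 1260 chromosome 11 genes tested, 269 passed (21.3%), and 255 were lower (20.2%).

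Against that shift, Stat3 and Socs3 stood in the upper part of their chromosome, and the place of Lif was not settled. Stat3 was above 86.0% of the 961 genes by log2 fold change (83.6% to 86.9% with 1 library left out) and Socs3 above 94.4% (92.2% to 95.1%). Lif was above 93.4%, but above 48.8% without KO replicate 3 and 65.7% without WT replicate 1, and its 95% interval spans the chromosome's median. Measured from the chromosome's median in the same library, the log2 level of Stat3 was -0.11, -0.10 and -0.11 in WT and 0.08, 0.11 and 0.12 in KO. The groups were separate, and KO was higher by 0.21. Socs3 was higher by 0.35 on the same scale (-0.35, -0.13 and -0.06 in WT, 0.04, 0.27 and 0.21 in KO), also with separate groups. Lif was higher by 0.31 (-0.68, 0.01 and 0.19 in WT, -0.12, -0.22 and 0.81 in KO), with groups that overlapped. The subtracted median itself separates the genotypes, by -0.27, so a gene unchanged against all genes stands higher in KO on this scale. Separation on it thus includes the chromosome's shift, as do calls in a centred fit. The share of chromosome 11 genes that separate or pass in this way was not counted. In a DESeq2 fit with the chromosome 11 median set to 0 in each library, Socs3 passed (log2 fold change 0.35, adjusted p = 0.0373), Stat3 did not (0.21, adjusted p = 0.166) and neither did Lif (0.32, adjusted p = 0.779). In that fit 5.74% of all genes passed. With the replicate block added, Socs3 (0.36, adjusted p = 3.9e-06) and Stat3 (0.21, adjusted p = 0.0111) both passed, next to Jak1 and Pim3, where 11.4% of all genes did. The direction of Stat3 thus turned with the scale: -0.06 against all genes and 0.21 against its own chromosome.

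**Figure D3:**
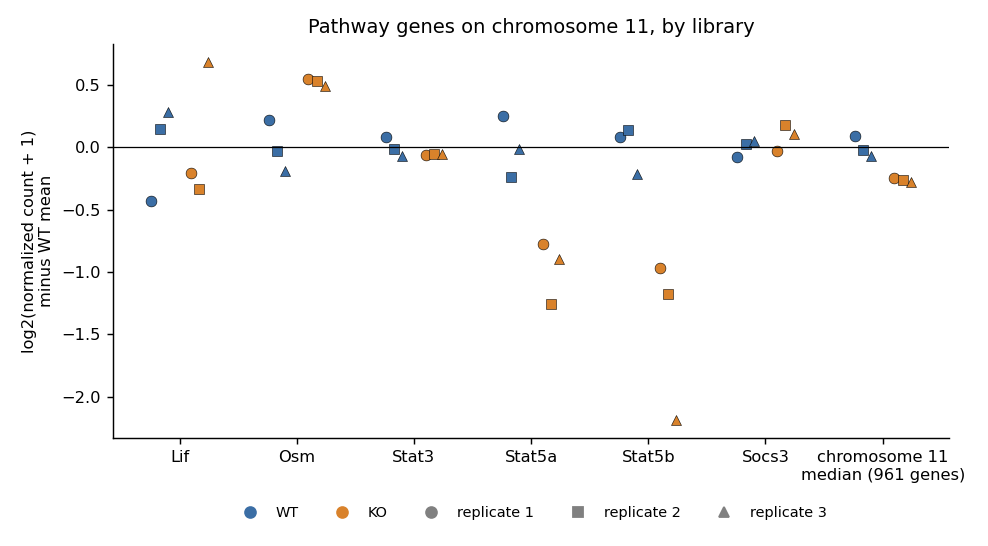
Log2(normalized count + 1) minus the WT mean (vertical axis) of 6 pathway genes on chromosome 11 and of the median of 961 genes of that chromosome, in each WT (blue) and KO (orange) library, with marker shapes for replicate numbers. The KO medians lie below all WT medians, Stat3 and Socs3 overlap between genotypes, Osm is higher and Stat5a and Stat5b are lower in every KO library.

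The genes around Stat3 and Socs3 mostly had lower fold changes than those 2 genes. Within 1 Mb on either side, among genes with a mean of at least 50 normalized counts, 42 of 47 had a lower log2 fold change than Stat3 (40 to 43 with 1 library left out) and 18 of 18 had a lower one than Socs3 (16 to 18). For Lif the count was 34 of 35, but 18 of 35 without KO replicate 3 and 26 of 35 without WT replicate 1. The median log2 fold change of these neighbours was -0.30 around Lif, -0.26 around Stat3 and -0.22 around Socs3. Of the nearest genes tested, Hormad2 next to Lif fell by 1.18 on the log2 scale (DESeq2 adjusted p = 7.5e-06), Ptrf next to Stat3 fell by 0.56 (8.4e-05), and Pgs1 next to Socs3 fell by 0.31 (0.0401). Pgs1 did not pass in edgeR (adjusted p = 0.0600), in limma-voom (0.0544), without independent filtering (0.0507), or when any library but WT replicate 3 was left out (0.0700 to 0.331). With chromosome 11 centred, Hormad2 still passed (-0.91, DESeq2 adjusted p = 0.0012), while neither Ptrf (-0.29, 0.158) nor Pgs1 (-0.04, 0.934) did. Tha1, on the other side of Socs3, had a log2 fold change of -0.12 (DESeq2 adjusted p = 0.938).

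Stat5a and Stat5b, the other STAT genes of the Stat3 locus, stood apart from Stat3. They encode transcription factors that bind the same kind of motif and respond mainly to other cytokines. Stat5b (chr11:100780731-100850724, minus strand) read 182, 189 and 148 in WT and 87.5, 75.3 and 37.0 in KO. Every KO library was below every WT library, and replicate 3 of KO, with 14 counts, was the lowest. It fell by 1.30 ± 0.26 on the log2 scale (DESeq2 adjusted p = 2.9e-05) and stood below all but 0.937% of chromosome 11 genes. Stat5a (chr11:100859351-100885169, plus strand), the nearest tested neighbour of Stat3, read 118, 84.0 and 98.6 in WT and 57.6, 40.9 and 52.9 in KO. It too was lower in every KO library and fell by 1.01 ± 0.28 (DESeq2 adjusted p = 0.00738), but it did not pass with chromosome 11 centred (-0.73, adjusted p = 0.106), without WT replicate 1 (0.204) or without KO replicate 2 (0.174). Its annotated interval overlaps that of Stat3 on the opposite strand by 72 bases, and whether counting used the strand is not given in the sources used here. Relative to Stat3 counts, Stat5b went from 5.58% ± 0.580 in WT to 2.25% ± 0.894 in KO, and Stat5a from 3.24% ± 0.447 to 1.70% ± 0.292. Both ratios, chosen after the values were seen, separated the genotypes (exact permutation test, two-sided p = 0.1 each, the smallest it allows).

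Osm, which encodes oncostatin M, another ligand of the gp130 family, lies next to Lif. It read 76.6, 64.3 and 57.5 in WT and 96.5, 95.5 and 92.5 in KO. All KO libraries were above all WT libraries, with a log2 fold change of 0.49 ± 0.25 that did not pass (DESeq2 adjusted p = 0.291). With chromosome 11 centred it passed at 0.77 (adjusted p = 0.0323), and 98.3% of the 961 chromosome 11 genes lay below it.

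Beyond the 10 genes, 64 other genes of the pathway were listed by role, of which 59 were tested. Of these, 6 passed, 1 higher and 5 lower in KO, where 7.49% of all genes passed. The median log2 fold change of the 59 was 0.04. On chromosome 11, 3 of 5 passed (Stat5a, Stat5b and Socs7, all lower) where 21.3% of that chromosome's genes did. Elsewhere 3 of 54 passed (Socs2, Socs1 and Akt1), a share near the 6.24% of all genes off chromosome 11. Without replicate 3 of both genotypes 5 of the 6 passed, all but Socs1.

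Among the 11 inhibitor genes of the SOCS and PIAS families 3 passed, where 7.49% of all genes did, and 1 of the 3, Socs7, is on chromosome 11. Socs2, whose protein is best known for dampening growth hormone signals, read 768, 819 and 737 in WT and 1214, 1279 and 1062 in KO. Every KO library was above every WT library, and it rose by 0.62 ± 0.12 on the log2 scale (DESeq2 adjusted p = 1.1e-05). Socs1, an inhibitor of JAK kinases, read 56.6, 69.9 and 46.6 in WT and 34.4, 24.9 and 18.5 in KO. It was lower in every KO library and fell by 1.11 ± 0.36 (DESeq2 adjusted p = 0.0333), from a small number of reads (7 counts in KO replicate 3); it did not pass without either of KO replicates 1 (0.0596), 2 (0.263) and 3 (0.0843) or WT replicates 1 (0.196) and 2 (0.353). Socs7 read 745, 703 and 811 in WT and 572, 507 and 568 in KO, again without overlap. It fell by 0.45 ± 0.12 (DESeq2 adjusted p = 0.00666), and with chromosome 11 centred its log2 fold change was -0.18 (0.604). It also missed the threshold without WT replicate 1 (0.0610) and without KO replicate 2 (0.151). The other 8 inhibitor genes lay between -0.25 and 0.42 and did not pass.

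Set beside Socs3, the 2 SOCS genes off chromosome 11 that passed differed in direction. Socs2 counts were 32.3% ± 2.36 of Socs3 counts in WT and 46.6% ± 5.27 in KO. Socs1 counts were 2.41% ± 0.499 of them in WT and 1.03% ± 0.387 in KO. Each ratio separated the genotypes (exact permutation test, two-sided p = 0.1 each, the smallest it allows), and both were chosen after the values were seen.

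Akt1 encodes a kinase of the PI3K branch that LIF also activates. Of 8 branch and adaptor genes it was the only one to pass in this test, where 7.49% of all genes did, a count near that share. It read 725, 690 and 644 in WT and 428, 499 and 505 in KO. It was lower in every KO library and fell by 0.54 ± 0.13 on the log2 scale (DESeq2 adjusted p = 0.00117), but did not pass without KO replicate 1 (0.0648). The adaptor gene Gab1 had a log2 fold change of -0.23 ± 0.10 (DESeq2 adjusted p = 0.180) and passed only in both fits with the replicate block.

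Genes of the kinases and phosphatases around the receptor gave 0 of 7 calls, where 7.49% of all genes passed. The level of Jak2 was 204 ± 54.6 in WT and 176 ± 11.8 in KO (log2 fold change -0.24, DESeq2 adjusted p = 0.676). For Tyk2 the log2 fold change was 0.03 (0.949), and for Ptpn11, the phosphatase SHP2 that links gp130 to the ERK branch, it was 0.0050 (0.990). The other ligand genes gave 0 of 6 and the other receptor genes 0 of 6. Like the 0 of 7, these counts come from lists too small to set against that share.

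A further list of 15 STAT3 target genes gave 0 calls in DESeq2, edgeR and limma-voom, and 0 of 15 had an unadjusted p under 0.05 in DESeq2. Over all genes the shares called were 7.49%, 5.46% and 5.33%, and 17.2% had an unadjusted p under 0.05, so 0 of 15 calls lies near the background for a list of this size. Tfcp2l1, the target known for carrying most of the LIF effect on self-renewal, read 18250, 17840 and 20000 in WT and 19300, 19910 and 19320 in KO (log2 fold change 0.06, adjusted p = 0.838). The KO values lay within the WT range. Klf4 had a log2 fold change of -0.09 (0.826), Klf5 of 0.16 (0.749) and Myc of -0.06 (0.916). In all, 11 of the 15 lay above 0 and 4 below, with a median of 0.09.

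**Figure D4:**
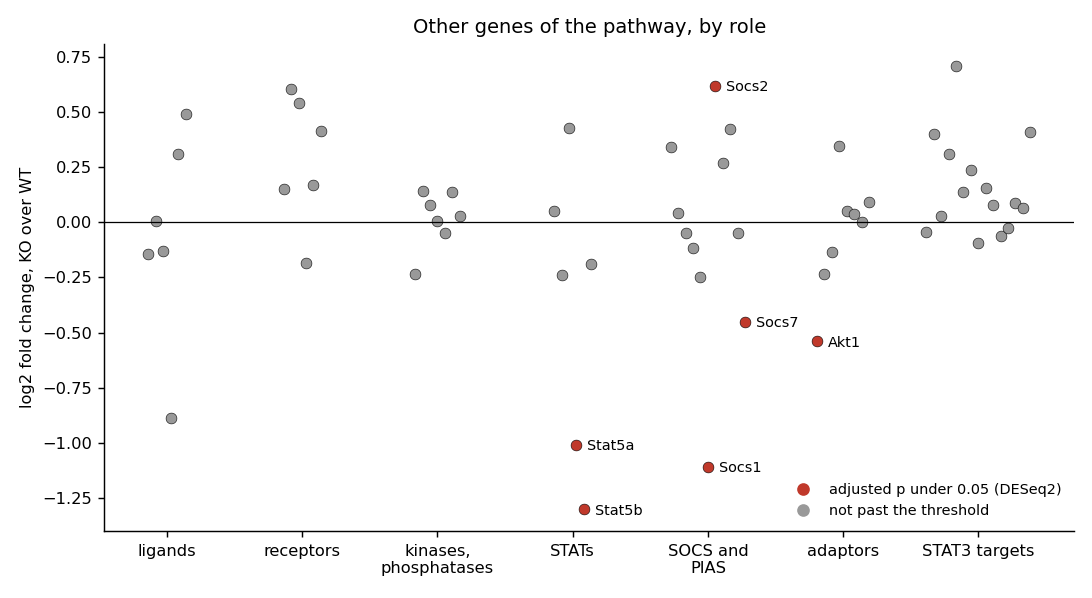
Log2 fold change of KO over WT (vertical axis) for the 59 other pathway genes tested, grouped by role; each point is a gene, red where the DESeq2 adjusted p is under 0.05. Red points are Socs2 above 0 and Stat5a, Stat5b, Socs1, Socs7 and Akt1 below, while all 15 STAT3 targets are grey.

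The genes most alike Stat3 across the 6 libraries, among 11524 with a mean of at least 50 normalized counts, were Lap3 (Pearson's r = 0.985), Eri3 (0.984) and Boc (0.980). Those most alike Socs3 were Smo (0.989), Lrrc20 (0.974) and Ugt8a (0.971). All 6 lie on other chromosomes and none passed the test between genotypes. These are descriptions over 6 points that share their libraries and size factors.

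**Figure D5:**
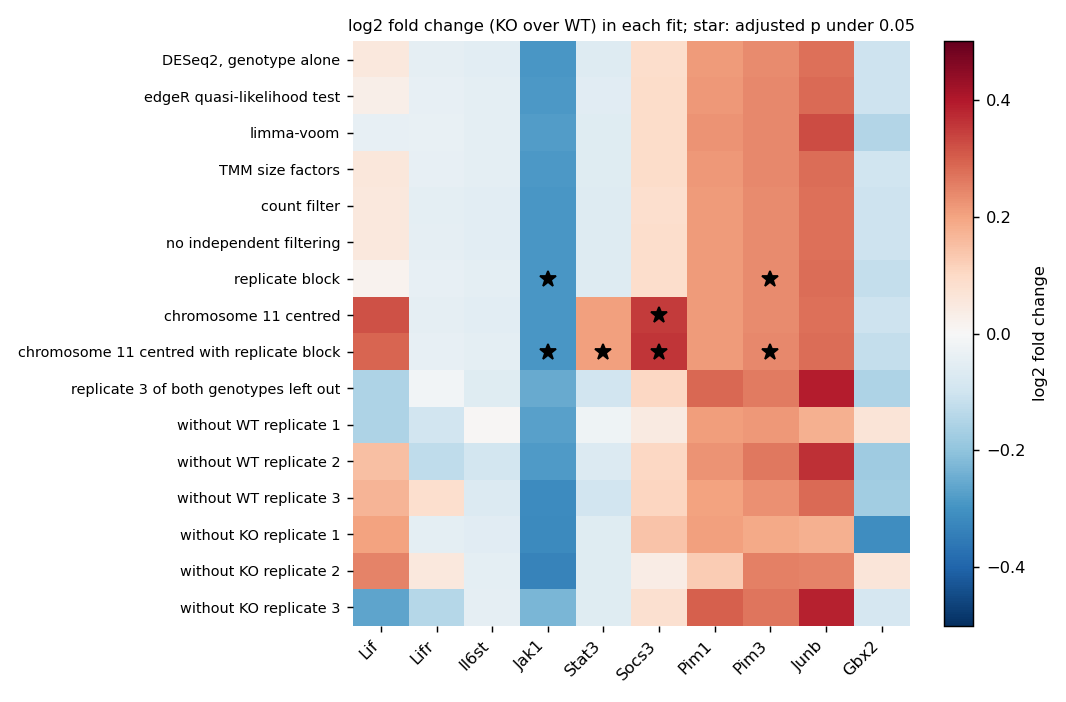
Log2 fold change of KO over WT (colour) of the 10 genes (columns) in the DESeq2 test with genotype alone and in 15 other fits (rows); stars mark an adjusted p under 0.05. Stars appear only in the fits with the replicate block (Jak1 and Pim3), with chromosome 11 centred (Socs3), and with both (those 3 and Stat3).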

How the data were processed

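Raw read counts per gene were deposited by the authors for each library, without normalization. The submitters' processing notes name mm10, TopHat2 2.1.1, Bowtie2 2.3.1.0, featureCounts 1.6.2 and DESeq2. The libraries were stranded; the strand setting and annotation used in counting are not given in the sources used here. The study's methods state a Wald test in DESeq2 with a false discovery rate of 0.05. The counts were tested here with that test in DESeq2 1.42.0 (median-of-ratios size factors, independent filtering at 0.1, Benjamini-Hochberg adjusted p under 0.05) in R 4.3.3. The alternatives included edgeR 4.0.16 and limma 3.58.1. Independent filtering removed 5 of the 64 other pathway genes. A limit of 3 counts corresponds to 1.69 to 8.21 normalized counts, for counting error only. Positions came from GENCODE M21, which gave one to 23037 of 23420 symbols (1260 through an older symbol), and promoters from RefSeq (10 of 10 matched).

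Deviations of libraries with equal replicate numbers correlated over 11524 genes (0.469, 0.619 and 0.684), so the numbers were taken to pair them. Unequal numbers gave -0.542 to 0.138. No label gives a shared batch, and calls with the replicate block rest on this pairing, read from the same counts. By chi-square per degree of freedom, KO replicate 1 lay closer to KO replicate 2 (20.6) than to WT replicate 1 (57.3). WT replicate 1 likewise lay closer to WT replicate 2 (47.8). Chromosome 11 values used log2(normalized count + 1).

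Genes named outside the 10 were Patz1, genes of the listed roles past the threshold, Osm, Jak2, Tyk2, Ptpn11, Stat5a, Stat5b, Klf4, Klf5, Tfcp2l1 and Myc regardless of p, the nearest tested neighbours of the chromosome 11 genes, the 3 genes most alike Stat3 and Socs3, and markers past the threshold. Gab1, the ESC markers, Foxa2, Col1a1, Col1a2 and the overlapping genes were named after their values were seen. A gene that the rule also names is not reported here. The 10 genes and all lists were chosen with earlier results of these data known.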

Additional observations from a re-analysis of the deposited data

How the results depend on the processing

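Over all genes, 1146 passed in DESeq2, against 2131 with the replicate block, 1746 with chromosome 11 centred and the block, 719 at an adjusted p under 0.01, and 583 to 1341 when 1 library at a time was left out. Of the 10 genes, 0 passed, against 2 with the replicate block, 1 with chromosome 11 centred and 4 with both, and 0 to 0 with 1 library left out. Of the other pathway genes 6 passed, and 3 to 6 with 1 library left out, the 3 being without WT replicate 1 or without KO replicate 2. The direction turned for Stat3, to 0.21 with chromosome 11 centred and 0.21 with the block added, and for Lif, to -0.041 in limma-voom and -0.15 without replicate 3 of both genotypes. With 1 library left out, Lif ranged from -0.26 to 0.25, Lifr from -0.14 to 0.083, Il6st from -0.092 to 0.0070 and Gbx2 from -0.31 to 0.063. The cause was not tested. Jak1, Pim1, Pim3, Junb and Socs3 kept their direction in all 15 other fits, and Stat5b and Socs2 passed in all 15. Among the genes the text names, the replicate block changed the calls of Jak1, Pim3, Gab1, Fgf4, Pou5f1 and Zfp42, and with chromosome 11 centred also those of Stat3 and Ptrf, and no other call where both fits gave an adjusted p; Foxa2 passed with chromosome 11 centred and had no adjusted p once the block was added. The chromosome 11 median stayed between -0.30 and -0.22 with 1 library left out. Counts were few in KO replicate 3 of Socs1 (7), Stat5b (14) and Stat5a (20), and ran from 43 to 152 for Lif.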
